A study of Mus musculus with 42 samples.

Results

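The lateral hypothalamus (LH) libraries of mice exposed to chronic restraint stress (CRS) were compared with the LH libraries of naive mice. The 6 libraries, 3 CRS and 3 naive, were taken by their labels out of 42 RNA sequencing libraries of mouse brain tissue. The question that the design implies is which transcripts of the LH differ after repeated immobilisation. All mice, naive ones included, had been through a forced swim test (FST), which scores immobility in water, 2 days before sacrifice. The lateral habenula libraries of the series are split by FST immobility, whereas the LH libraries carry no immobility class. Strain, sex, age and the length of restraint are not given in the sources used here. The labels number the libraries 1 to 3 in each group without saying that each came from a separate animal, so the p-values measure the spread between these libraries, which may be technical. Polyadenylated RNA was sequenced, and the total gene count lay between 53862317 and 62376672 per library.

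The LH is a loosely bounded field of neurons between the thalamus above, the ventromedial and dorsomedial nuclei towards the midline and the fibre tracts along its side. It holds the neurons that make orexin and those that make melanin-concentrating hormone (MCH), which act on arousal, feeding and motivated behaviour, together with many GABA and glutamate neurons that project to the lateral habenula and the ventral tegmental area (VTA). Ependymal cells, whose motile cilia beat in the cerebrospinal fluid, line the third ventricle at the midline, and myelinated bundles of the medial forebrain and the internal capsule cross or border the LH.

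The 2 peptides that define the region were present in all 6 libraries. Hcrt, the orexin precursor (chr11:100761069-100762931), was at 282, 32.7 and 489 FPKM in naive libraries 1, 2 and 3 and at 367, 301 and 458 in CRS libraries 1, 2 and 3. Pmch, the MCH precursor (chr10:88091072-88092375), was at 791, 170 and 908 FPKM in the naive and at 631, 604 and 1527 in the CRS libraries. Both were lowest in naive 2, and the groups overlapped. FPKM is the number of fragments scaled to transcript length and to the mapped fragments of the library, so these levels are per length. Coordinates are those of the deposited table, whose gene starts equal those of GENCODE M21 on GRCm38 for 99.5% of 40748 matched genes, although the submitters' processing notes name GRCm39. The highest single library of the 4 other regions in the same table, a naive VTA library, held 45.7 FPKM of Hcrt and 136 FPKM of Pmch. Hcrt was above that in 5 of the 6 LH libraries, all but naive 2, and Pmch in all 6.

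The libraries of the naive group differed from one another in markers of the neighbouring nuclei. Prkcd, a protein kinase C of thalamic relay neurons, was at 32.5 and 25.6 FPKM in naive 1 and naive 2 but at 1.58 in naive 3, close to the 2.30, 2.31 and 1.71 of the CRS libraries. Ramp3, a receptor partner protein that is also strong in thalamus, was at 20.4 and 53.6 FPKM in naive 1 and naive 2, at 1.01 in naive 3 and at 1.29, 0.919 and 1.52 in the CRS libraries. Naive 1 and naive 2 were thus high and the other 4 libraries low. Nr5a1, the steroidogenic factor of ventromedial neurons, showed the opposite order, with 0.0238 and 0 FPKM in naive 1 and naive 2, 4.90 in naive 3 and 3.5, 3.75 and 2.06 in CRS. Fezf1, another transcription factor of that nucleus, was at 0.966 and 0.629 against 17.1 FPKM in naive 3 and 9.17, 15.4 and 3.21 in CRS. Npvf, the precursor of the RFamide peptides of the dorsomedial nucleus, was listed at 0 in naive 1 and naive 2, at 35.3 FPKM in naive 3 and at 11.5, 12.4 and 66.5 in CRS. Naive 3 therefore sat with the CRS libraries in all of these genes.

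The CRS group was mixed as well. Oxt and Avp, the oxytocin and vasopressin precursors of the paraventricular and supraoptic nuclei, were at 62.3 and 87.0 and at 64.7 and 78.6 FPKM in CRS 1 and CRS 2, but at 0.996 and 0.575 in CRS 3. In the naive libraries Oxt was at 2.13, 5.81 and 4.87 and Avp at 5.76, 16.7 and 4.88. Hdc, the histamine-forming enzyme of tuberomammillary neurons, was at 8.59 FPKM in CRS 3 and at no more than 1.18 in any other library. Naive 2 alone held transcripts of skeletal muscle and skin, a check added after the values were seen. Acta1, skeletal actin, was at 35.6 FPKM there and at no more than 1.82 elsewhere, and Krt5 and Krt14, the basal keratins, were at 9.73 and 15.4 and listed at 0 in the other 5 libraries.

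**Figure D1:**
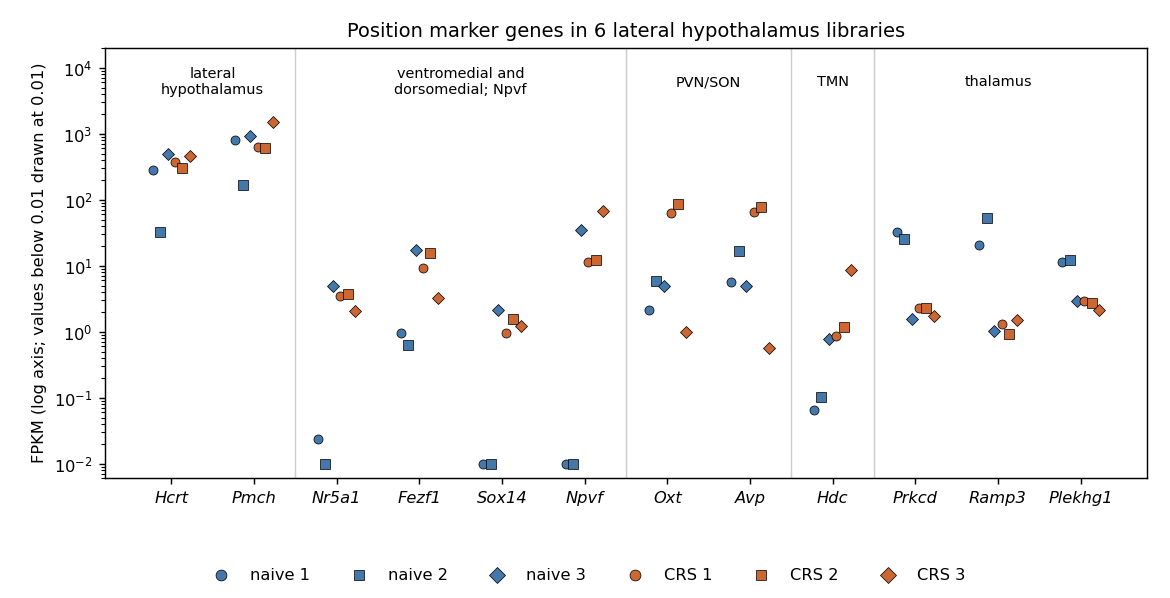
FPKM (log axis) of 12 position marker genes in the 6 LH libraries, 1 point per library; PVN/SON is the paraventricular and supraoptic nuclei and TMN the tuberomammillary nucleus. Naive 1 and naive 2 lie apart from naive 3 and the 3 CRS libraries in the ventromedial, dorsomedial and thalamic genes, and CRS 3 lies apart from CRS 1 and CRS 2 for Oxt, Avp and Hdc.

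The same split ran through the whole transcriptome. The first principal component held 43% of the variance and placed naive 1 and naive 2 at 57.9 and 98.2, naive 3 at -25.4 and the CRS libraries at -36.9, -39.8 and -54.1. The main results are therefore also given without naive 3, which leaves the 2 naive libraries that stand apart, or without naive 1 and naive 2 together, which leaves naive 3 alone against the 3 CRS libraries and assumes that it varies as they do. Where a gene follows this split of the libraries, CRS and the split cannot be told apart.

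No gene passed the test between CRS and naive LH. Of 20206 genes with enough counts, 0 reached an adjusted p of 0.05 in edgeR's quasi-likelihood test (0% called), and the smallest adjusted p was 0.424. At an unadjusted p of 0.05, 826 genes (4.09%) were higher and 1070 (5.3%) lower in CRS, 1896 in all (9.38%). The median log2 fold change, CRS over naive, was 0.01 over all genes. DESeq2 called 343 genes, 179 higher (0.798%) and 164 lower (0.731%), from the same 6 libraries, and limma called 0 at each of its 3 settings, with 1358 to 2198 at an unadjusted p of 0.05. Without naive 3, edgeR called 760 genes, 363 higher (1.71%) and 397 lower (1.87%). Without naive 1 and naive 2 it called 2.

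The 8 genes of smallest p on each side are given by library, with groups that overlapped in none of the 16. Overlap is judged on counts scaled to library size (CPM). Groups that do not overlap were common, in 1607 genes (7.95%) with CRS higher and in 1407 (6.96%) with CRS lower. Foxj1, the transcription factor that switches on the motile cilia programme (chr11:116330704-116335399), was at 2.86, 3.88 and 2.96 FPKM in naive and at 7.88, 6.62 and 9.89 in CRS. Its log2 fold change was 1.25 ± 0.20 (SE; edgeR adjusted p = 0.424), and it was 1.38 with naive 3 as the only naive library. Cfap43, a protein of the ciliary axoneme, was at 0.294, 0.203 and 0.336 FPKM in naive and at 1.1, 1.40 and 2.42 in CRS, a difference of 2.45 ± 0.35 in log2. Catip, a protein of ciliogenesis, was at 0.212, 0.305 and 0.531 against 1.77, 1.75 and 2.90 FPKM, or 2.48 ± 0.41 in log2. Odf3b, of the outer dense fibre family first known from sperm tails, was 2.39 ± 0.39 higher and Lrrc71, a leucine-rich repeat protein, 3.30 ± 0.53 higher on the same scale. In Odf3b and Lrrc71 too the lowest CRS library was above the highest naive one, at 2.18 over 0.846 and at 0.733 over 0.179 FPKM. Without naive 1 and naive 2 the differences of Cfap43, Catip, Odf3b and Lrrc71 were 2.18, 1.87, 1.87 and 2.75.

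The other 3 genes on the higher side were Kcnmb1, Per2 and Uckl1os. Kcnmb1, the beta subunit of the large-conductance calcium-activated potassium channel (chr11:33963013-33973641), had the smallest p of all named genes. It was at 0.109, 0.135 and 0.201 FPKM in naive and at 1.18, 0.964 and 1.55 in CRS, on 28, 32 and 49 counts against 302, 266 and 412. The log2 fold change was 2.95 ± 0.34 (edgeR adjusted p = 0.424) and 2.53 without naive 1 and naive 2. Per2, a repressor of the circadian clock (chr1:91415982-91459324), was at 3.08, 4.20 and 3.91 FPKM in naive and at 6.38, 6.56 and 7.14 in CRS. Its 3 CRS values lay closer together than its naive values, and the difference was 0.77 ± 0.14 in log2, with 0.70 left without naive 1 and naive 2. Uckl1os, an RNA antisense to Uckl1 whose reads cannot be told from its partner's unless counting used the strand, was 1.69 ± 0.29 higher, and 1.47 higher without naive 1 and naive 2.

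The 8 genes lower in CRS were of other kinds. Ttr, the transthyretin carrier of thyroid hormone that the choroid plexus makes in bulk, was at 21.9, 14.3 and 15.8 FPKM in naive and at 0.137, 0.918 and 2.37 in CRS. Its log2 difference was -4.02 ± 0.77 (edgeR adjusted p = 0.424), and -3.88 without naive 1 and naive 2. Enpp2, the lysophospholipase autotaxin of choroid plexus and oligodendrocytes (chr15:54838901-54920125), was at 76.8, 69.8 and 42.7 against 30.8, 33.4 and 26.8 FPKM. The naive 3 value lay nearer to CRS than to the other naive libraries, and the difference of -1.14 ± 0.23 was -0.57 without naive 1 and naive 2. S100a16, a calcium-binding protein (chr3:90537254-90543151), was at 27.8, 31.0 and 23.0 against 16.9, 17.9 and 17.8 FPKM, or -0.72 ± 0.13, and -0.47 was left without naive 1 and naive 2. Id2, an inhibitor of helix-loop-helix transcription factors (chr12:25093799-25097140), was at 21.6, 20.5 and 19.7 against 10.1, 13.8 and 15.3 FPKM, or -0.74 ± 0.16, and kept -0.67 without naive 1 and naive 2.

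The remaining 4 of this side were Xlr4a, Adamtsl4, mt-Tl1 and Pou3f1. Xlr4a, an X-linked gene with close copies beside it among which reads may be split, was at 0.649, 1.39 and 1.35 FPKM in naive and at 0, 0.0376 and 0.0937 in CRS, on 61, 121 and 121 counts against 0, 4 and 10. Adamtsl4, a protein of extracellular microfibrils, differed by -1.61 ± 0.31 and Pou3f1, a POU domain transcription factor, by -1.36 ± 0.28 in log2. The difference of Adamtsl4 was -0.74 and that of Pou3f1 -0.92 without naive 1 and naive 2, while that of Xlr4a was -4.89 and that of mt-Tl1 -1.06. mt-Tl1, a mitochondrial transfer RNA for leucine, differed by -1.12 ± 0.22, in libraries that were selected for poly(A) tails. DESeq2 called each of these 16 genes, and edgeR called 13 of the 16 without naive 3, all but Xlr4a, mt-Tl1 and Id2. None of the 16 was called by edgeR without naive 1 and naive 2.

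**Figure D2:**
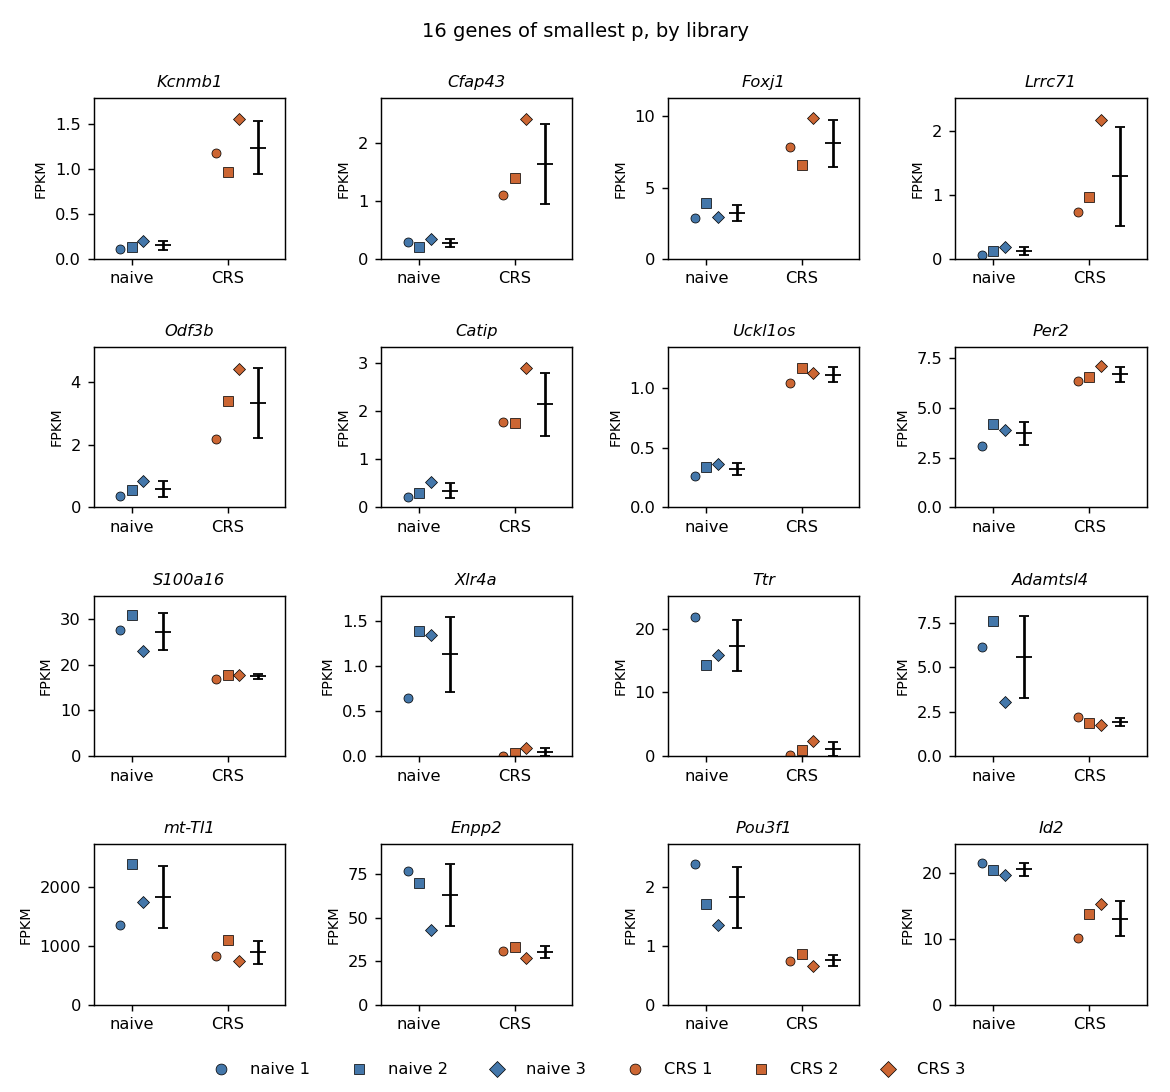
FPKM in each library of the 16 named genes of smallest p, 8 higher and 8 lower in CRS, with the mean and SD of the 3 libraries of each group in black. The groups are apart in every panel, and naive 3 (diamond) is the naive library nearest to CRS in panels such as Odf3b, Adamtsl4 and Enpp2 but not in Foxj1, Per2 or Ttr.

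Genes of ependymal cells formed the list that was higher in CRS. In bulk tissue, more or fewer cells of a type and more or less RNA per cell cannot be told apart. All 14 listed genes were tested and all 14 had a positive log2 fold change, against 51.2% of all genes. Of the 14, 13 were higher at an unadjusted p of 0.05, where 4.09% of all genes were, and 12 had groups that did not overlap, where 7.95% did. None passed in edgeR's adjusted test, whereas DESeq2 called 7 of them higher. The median was 2.74 in log2. It was 4.46 without naive 3 and 1.49 without naive 1 and naive 2. With naive 3 left out, edgeR called 12 of 14 higher, against 1.71% of all genes. The summed level of the list was 25.1, 18.8 and 40.5 FPKM in naive and 75.5, 70.2 and 102 in CRS, so naive 3 lay between the other naive libraries and CRS.

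The members covered the parts of a motile cilium. Rsph1, of the radial spoke head, was at 0.655, 0.787 and 2.67 FPKM in naive and at 5.17, 6.64 and 8.72 in CRS, with a log2 difference of 2.22 ± 0.54. Spag16, of the central apparatus, was at 0.00895, 0.0231 and 0.152 against 0.506, 0.814 and 1.03 FPKM, or 3.54 ± 0.85. Hydin, also of the central apparatus, was at 0.011, 0.031 and 0.254 against 0.714, 0.552 and 0.758 FPKM. In each of these genes naive 3 was the highest naive library and stayed under every CRS library. Dynein parts had the same order, with Dnah12, an axonemal heavy chain, at 0.00992, 0 and 0.249 against 0.517, 0.794 and 1.21 FPKM, and Dynlrb2, a light chain of the roadblock type, at 0.108, 0 and 0.740 against 1.64, 2.47 and 4.76. Ccdc153, a coiled-coil gene strong in ependyma, was at 0.0186, 0 and 1.17 against 4.04, 5.91 and 9.72 FPKM. Pltp, a phospholipid transfer protein that other brain cells also make, was the only member over an unadjusted p of 0.05. It was at 19.4, 11.8 and 23.6 against 39.2, 25.2 and 27.0 FPKM, and its groups overlapped on CPM though not on FPKM.

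Promoters of 11 of the 14 genes were in the RefSeq table (build GRCm38.p6, 250 bases before to 50 after the start). The half-site GTTGCC, or GGCAAC on the other strand, occurs in the X-box that RFX factors of ciliary genes bind, and 5 of the 11 genes held it, against 14.1% of 27025 genes with a promoter there. Of the 5, the 3 with 1 promoter and the smallest p are shown, with each match in capitals and read 5′ to 3′ on the gene's strand. Spag16 lies at chr1:69826720-69827019 (+), Dynlrb2 at chr8:116504765-116505064 (+) and Ccdc153 at chr9:44240427-44240726 (+). A match is a description of the letters.
Spag16: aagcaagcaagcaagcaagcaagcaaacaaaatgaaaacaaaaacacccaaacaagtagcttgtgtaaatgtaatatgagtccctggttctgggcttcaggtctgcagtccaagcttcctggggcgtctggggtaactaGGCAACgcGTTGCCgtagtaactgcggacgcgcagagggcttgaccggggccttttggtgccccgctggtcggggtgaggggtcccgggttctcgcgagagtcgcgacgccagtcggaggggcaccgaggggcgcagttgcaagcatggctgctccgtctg
Dynlrb2: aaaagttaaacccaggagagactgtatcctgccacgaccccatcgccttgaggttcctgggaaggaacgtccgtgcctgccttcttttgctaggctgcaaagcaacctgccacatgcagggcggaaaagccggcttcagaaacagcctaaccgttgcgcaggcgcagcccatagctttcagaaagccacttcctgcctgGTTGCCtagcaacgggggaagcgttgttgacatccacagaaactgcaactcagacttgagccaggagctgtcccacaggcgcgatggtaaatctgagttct
Ccdc153: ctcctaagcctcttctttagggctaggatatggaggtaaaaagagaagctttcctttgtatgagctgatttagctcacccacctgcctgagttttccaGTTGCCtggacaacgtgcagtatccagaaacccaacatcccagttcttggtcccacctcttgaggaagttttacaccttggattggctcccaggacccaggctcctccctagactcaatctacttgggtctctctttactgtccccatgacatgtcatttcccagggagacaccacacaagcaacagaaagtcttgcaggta

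Other cells that border a ventricle had their own lists, and the difference between these lists and the ependymal one was not tested. Among 13 choroid plexus genes tested of 14, 8 had a positive and 5 a negative log2 fold change, with a median of 0.17, and 4 were lower at an unadjusted p of 0.05, against 5.3% of all genes. The median was 0.03 without naive 3 and turned to -0.39 without naive 1 and naive 2, with 8 of 13 negative. Those 4 were Ttr, Enpp2, Otx2 and Slc4a5, a bicarbonate transporter at no more than 0.0854 FPKM in any library. Folr1, the folate receptor of the plexus, stayed at or below 0.303 FPKM and Aqp1, its water channel, at or below 0.225 in all 6 libraries. Among 8 tanycyte genes, 1 was higher at an unadjusted p of 0.05, against 4.09% of all genes. By sign alone 5 were higher and 3 lower, with a median of 0.63. That median was 0.76 without naive 3 and 0.24 without naive 1 and naive 2, and the median level of the list in every CRS library was above that in every naive library.

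Myelin genes were lower in CRS as a group. All 21 genes of myelinating oligodendrocytes had a negative log2 fold change, and all 21 were lower at an unadjusted p of 0.05, against 5.3% of all genes. In 14 the groups did not overlap, against 6.96%. None passed in edgeR's adjusted test and DESeq2 called 16 of them lower. The median was -1.21 and it was -1.51 without naive 3, where edgeR called 17 of 21 lower, against 1.87% of all genes. Without naive 1 and naive 2 the median was -0.31, 20 of 21 were still negative and 0 were lower at an unadjusted p of 0.05, against 0.761% of all genes. The summed level was 2975, 3066 and 1352 FPKM in naive and 1244, 1184 and 902 in CRS. Naive 1 and naive 2, the libraries with high thalamic markers, held the high values, and naive 3 lay just above the highest CRS library. The part of the neighbouring tissue in this difference was not tested.

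Mbp, the basic protein that compacts myelin, was at 718, 717 and 322 FPKM in naive and at 315, 278 and 215 in CRS. Mobp, a smaller basic protein, was at 364, 475 and 156 against 127, 135 and 112 FPKM. The naive 3 value of both was above the highest CRS value by a small margin. Cldn11, the claudin of the myelin tight junction, had the smallest p of the list, at 112, 110 and 52.0 against 44.9, 36.8 and 28.6 FPKM, or -1.39 ± 0.31. Myrf and Sox10, transcription factors of the lineage, overlapped between groups, with Myrf at 16.8, 14.5 and 8.58 against 9.72, 6.5 and 4.41 FPKM. Of 16 genes of oligodendrocyte precursors and newly formed oligodendrocytes, 5 were lower at an unadjusted p of 0.05, against 5.3% of all genes. On the higher side were 0, against 4.09%, and the median of the list was -0.10. Olig1 was among the 5 lower genes, at 82.0, 94.0 and 62.4 against 56.3, 46.2 and 37.9 FPKM.

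Microglial genes lay lower in CRS by less, and their median kept its size when naive libraries were left out. All 20 had a negative log2 fold change, 6 at an unadjusted p of 0.05, against 5.3% of all genes, and 7 with groups that did not overlap, against 6.96%. The median of -0.36 was -0.37 without naive 3 and -0.33 without naive 1 and naive 2, where 18 of 20 were negative and 0 had an unadjusted p of 0.05. Neither DESeq2 nor edgeR without naive 3 called any of them. Ctss, the lysosomal protease cathepsin S, was at 33.3, 35.3 and 29.1 FPKM in naive and at 21.5, 23.4 and 25.9 in CRS, or -0.55 ± 0.13. C1qb, a chain of the first complement component, was at 23.1, 24.6 and 21.6 against 17.8, 15.0 and 15.6 FPKM, or -0.60 ± 0.14. Tmem119, a surface protein that marks resident microglia, was at 5.63, 6.09 and 5.65 against 5.36, 3.52 and 3.90 FPKM. In these genes naive 3 stood with the naive group, in contrast to myelin. Csf1r, the receptor on which microglia depend, was at 11.3, 8.93 and 12.8 against 11.5, 10.4 and 7.62 FPKM, with overlapping groups.

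Of the other cell lists, leptomeningeal fibroblasts had 15 of 16 tested genes negative, 5 of them at an unadjusted p of 0.05, against 5.3% of all genes. Their median was -0.73. It was -0.27 without naive 1 and naive 2. Igf2, the growth factor of the meninges, was at 3.86, 3.80 and 3.92 FPKM in naive and at 2.70, 2.76 and 2.28 in CRS, and its -0.66 ± 0.15 was -0.68 without naive 1 and naive 2. Ptgds, the prostaglandin D synthase of meninges and oligodendrocytes, was at 158, 135 and 89.2 against 86.6, 63.8 and 55.3 FPKM. Astrocyte genes had a median of -0.04, with 0 of 20 at an unadjusted p of 0.05, where 9.38% of all genes were. Of 24 endothelial and pericyte genes 1 reached it, with a median of -0.18. Pan-neuronal genes had 4 of 14 lower at an unadjusted p of 0.05, against 5.3% of all genes. Their median of -0.15 also changed little, at -0.10 without naive 3 and -0.14 without naive 1 and naive 2.

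**Figure D3:**
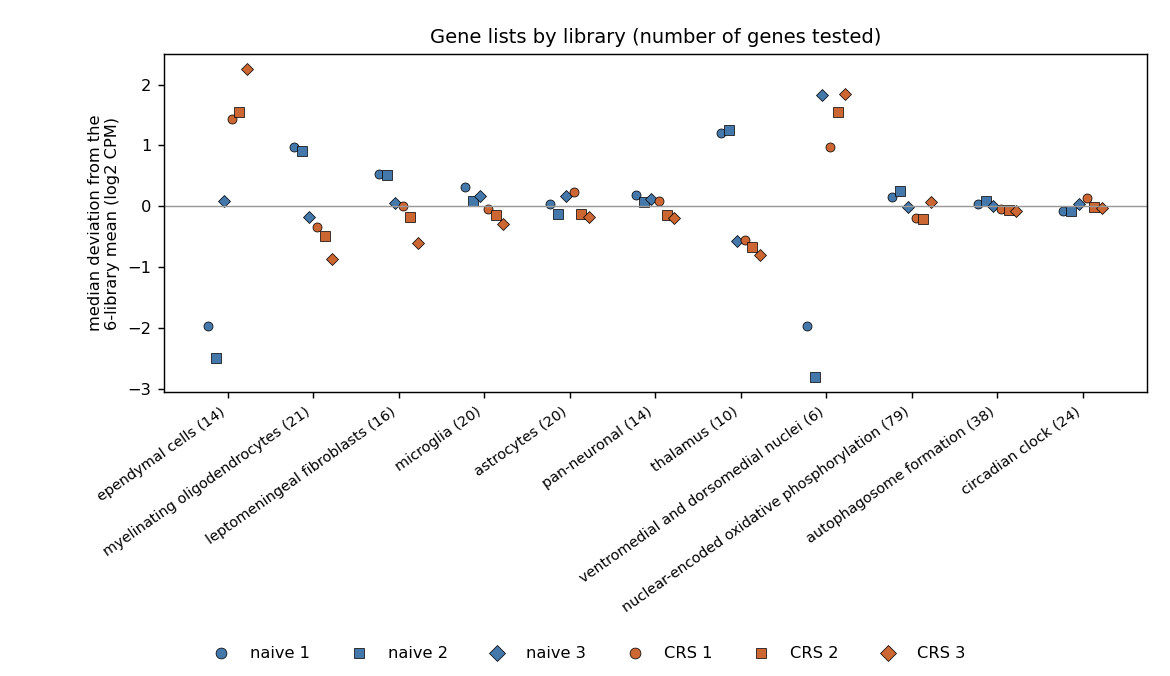
Each point is 1 library and gives the median, over the tested genes of a list, of the deviation from the mean of the 6 libraries in log2 CPM. Naive 1 and naive 2 are lowest for ependymal genes and for ventromedial and dorsomedial genes and highest for myelin and thalamic genes, whereas the microglial values span a narrow range with every naive library above every CRS library.

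The thalamic list and the ventromedial and dorsomedial list followed the library split. Of 10 thalamic genes, 9 had a negative log2 fold change and 7 were lower at an unadjusted p of 0.05, against 5.3% of all genes. Their median of -1.58 was -0.23 without naive 1 and naive 2. Plekhg1, an exchange factor for small GTPases, was at 11.5, 12.1 and 2.89 FPKM against 2.97, 2.77 and 2.10. All 6 ventromedial and dorsomedial genes had a positive log2 fold change and 0 an unadjusted p of 0.05. With naive 3 left out, edgeR called 5 of 6 higher, against 1.71% of all genes. Their median of 0.82 was 3.60 without naive 3 and -0.62 without naive 1 and naive 2. The direction of this list thus turned with the choice of naive libraries.

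**Figure D4:**
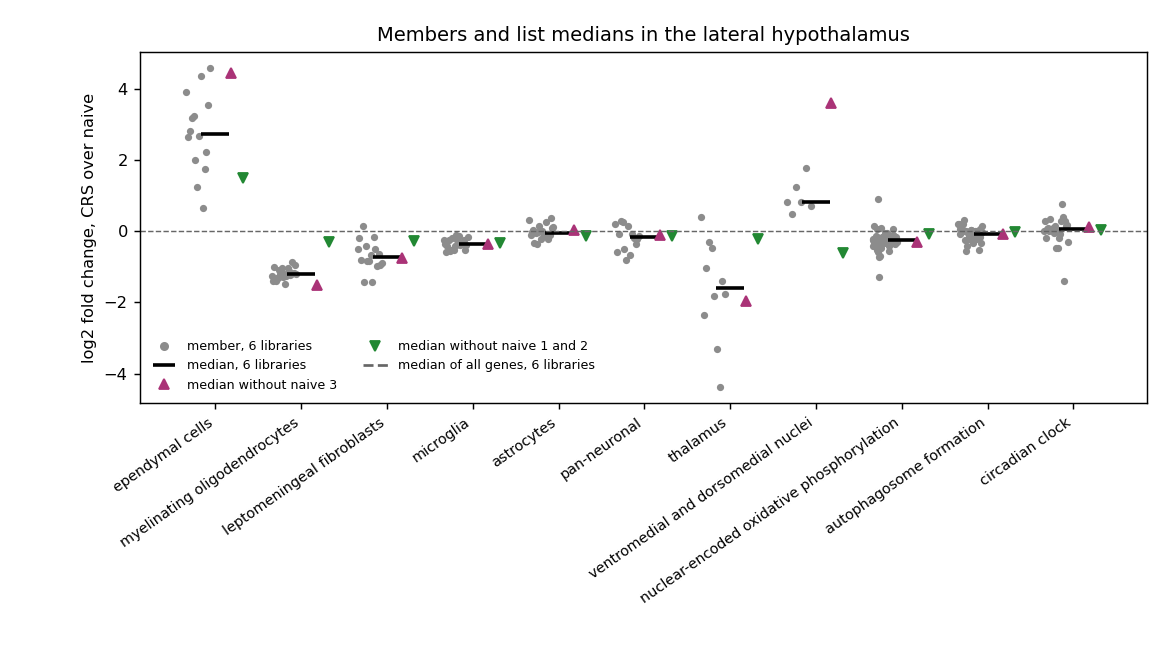
Log2 fold changes, CRS over naive, of the tested members of 11 lists (grey), with the list median from all 6 libraries, without naive 3, and without naive 1 and naive 2. The ependymal median stays positive at 2.74, 4.46 and 1.49 and the microglial one near -0.36, the myelin median shrinks from -1.21 to -0.31 without naive 1 and naive 2, and the ventromedial and dorsomedial median turns from 0.82 to -0.62.

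Orexin, MCH and the other peptide systems of the LH gave no call in edgeR from the 6 libraries. Hcrt differed by 0.38 ± 0.74 and Pmch by 0.45 ± 0.60 in log2 (SE), and without naive 1 and naive 2 by -0.46 and -0.07. Hcrtr1 and Hcrtr2, the orexin receptors, were at 1.11, 1.05 and 2.37 and at 1.20, 0.566 and 1.25 FPKM in naive, and at 1.92, 2.35 and 2.58 and at 0.969, 1.37 and 2.86 in CRS. Both overlapped between groups. Pdyn, the dynorphin precursor that orexin neurons also make, was at 9.61, 2.48 and 24.1 against 20.1, 25.3 and 33.2 FPKM. Nts, the neurotensin precursor, was at 9.92, 4.92 and 19.4 against 10.8, 29.2 and 25.6 FPKM, and Gal, the galanin precursor, at 5.74, 1.85 and 29.3 against 16.8, 18.6 and 60.6. Each was lowest in naive 2 and had a naive 3 value within the CRS range. Of 14 other LH peptide and receptor genes, 13 had a positive log2 fold change, against 51.2% of all genes. Only 1, Crhr2, was higher at an unadjusted p of 0.05, against 4.09%. The median of 0.67 was 1.86 without naive 3 and -0.09 without naive 1 and naive 2. With naive 3 left out, edgeR called 4 of the 14 higher, Trh, Calcr, Crhr2 and Npvf, against 1.71% of all genes.

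Crhr2, a receptor for urocortins, was at 0.360, 0.144 and 0.941 FPKM in naive and at 1.46, 1.55 and 1.27 in CRS. Crhr1, the main receptor of corticotropin-releasing hormone, was at 3.92, 7.60 and 1.88 against 1.85, 2.00 and 2.21 FPKM, with naive 1 and naive 2 high. Crh itself was at 3.26, 0.427 and 2.80 against 3.10, 2.86 and 4.39 FPKM. Of 23 tested genes of stress peptide systems, 20 had a positive log2 fold change, against 51.2% of all genes. At an unadjusted p of 0.05, 2 were higher, Oxt and Crhr2, and 1 lower, Crhr1, against 4.09% and 5.3% of all genes. The median of 0.45 was 0.69 without naive 3 and 0.08 without naive 1 and naive 2. With naive 3 left out, edgeR called 2 higher, Crhr2 and Adcyap1, against 1.71% of all genes. It called 2 lower, Crhr1 and Npy, against 1.87%. Slc17a6, the vesicular glutamate transporter of LH neurons, was at 38.9, 31.6 and 50.8 against 37.6, 49.7 and 46.5 FPKM. Gad1, the GABA-forming enzyme, was at 97.5, 179 and 59.1 against 73.9, 55.4 and 54.0 FPKM, and its difference of -0.93 ± 0.35 was -0.02 without naive 1 and naive 2.

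Glucocorticoid response genes did not share a direction. Of 29 tested, 2 were higher and 4 lower at an unadjusted p of 0.05, against 4.09% and 5.3% of all genes, with a median of -0.12. The median was 0.03 without naive 1 and naive 2 and -0.02 without naive 3. Zbtb16, a zinc finger repressor that glucocorticoids induce, was at 0.997, 1.43 and 1.24 FPKM in naive and at 2.82, 3.17 and 1.97 in CRS. Its 1.04 ± 0.23 was 1.03 without naive 1 and naive 2, and DESeq2 called it. Hif3a, an inhibitory hypoxia factor also induced by glucocorticoids, was at 0.829, 0.981 and 0.374 against 1.65, 1.72 and 1.27 FPKM. Other targets were lower, such as Arl4d, a small GTPase, at 4.21, 14.9 and 3.99 against 1.57, 2.59 and 2.32 FPKM, and Ddit4, an inhibitor of mTOR, at 11.3, 25.2 and 12.6 against 9.03, 10.6 and 10.6. Naive 2 was the highest library in both, and without naive 1 and naive 2 the difference of Arl4d was -0.97, from -1.89, and that of Ddit4 -0.41, from -0.77. Fkbp5, the cochaperone of the receptor, was at 2.47, 3.28 and 2.06 against 1.94, 2.32 and 2.09 FPKM, and Nr3c1, the receptor itself, at 15.1, 11.3 and 13.4 against 11.8, 12.8 and 11. Both overlapped between groups.

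Immediate early genes, which mark recent neuronal activity, had 1 higher and 5 lower of 41 at an unadjusted p of 0.05. Of all genes, 4.09% were higher and 5.3% lower. The median of the immediate early genes was -0.05. The sign of that median depended on the naive libraries, with 0.13 without naive 3 and -0.25 without naive 1 and naive 2. Npas4, the activity factor of neurons, was at 1.47, 1.55 and 2.20 FPKM in naive and at 2.72, 2.37 and 3.25 in CRS. Klf2, a factor strong in endothelium, was at 3.31, 7.11 and 7.63 against 3.11, 3.04 and 1.3 FPKM, and Arc, the postsynaptic activity gene, at 11.2, 20.2 and 4.66 against 6.26, 4.23 and 3.11. The difference of Npas4 was 0.59 ± 0.23, of Klf2 -1.34 ± 0.42 and of Arc -1.46 ± 0.48. They were 0.26, -1.69 and -0.11 without naive 1 and naive 2.

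Of 24 clock genes, 3 were higher, with Per2 among them, and 1 lower at an unadjusted p of 0.05. The shares of all genes were 4.09% and 5.3%. The median of the clock genes was 0.06. It was 0.13 without naive 3 and 0.02 without naive 1 and naive 2. Per3, a paralog of Per2, was at 3.90, 5.60 and 5.01 FPKM in naive and at 6.20, 6.51 and 7.38 in CRS, or 0.39 ± 0.14. Cry1, a partner of the PER proteins, was at 4.63, 5.34 and 4.93 against 6.45, 6.35 and 7.18 FPKM, or 0.34 ± 0.13. Per2, Per3 and Cry1 were the 3 of the 24 genes with every CRS library above every naive one, against 7.95% of all genes. Per1 and Cry2, paralogs in the same list, were not among them. Without naive 1 and naive 2 the differences of Per2, Per3 and Cry1 were 0.70, 0.34 and 0.36. Arntl and Clock, the activators, were at 2.37, 2.76 and 3.14 and at 6.45, 7.22 and 6.23 in naive, against 2.69, 2.81 and 3.35 and 6.72, 7.76 and 6.87 FPKM in CRS. The hour of tissue collection is not given in the sources used here. The lower gene was Rora, an orphan receptor also strong in thalamus, at 13.7, 14.1 and 3.91 against 3.98, 4.99 and 3.68 FPKM. Its log2 difference of -1.41 ± 0.42 was 0.03 without naive 1 and naive 2.

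Of the clock genes, 20 of 24 had a promoter in the RefSeq table and 5 held the E-box CACGTG, the same on both strands, against 8.09% of genes. Cry1 is shown as the gene of smallest p among those with the E-box and 1 promoter there. Per3, also with groups apart and of smaller p, had a promoter without the E-box, and Per2 had no promoter there. The promoter of Cry1 lies at chr10:85185005-85185304 (-), with the E-box in capitals.
Cry1: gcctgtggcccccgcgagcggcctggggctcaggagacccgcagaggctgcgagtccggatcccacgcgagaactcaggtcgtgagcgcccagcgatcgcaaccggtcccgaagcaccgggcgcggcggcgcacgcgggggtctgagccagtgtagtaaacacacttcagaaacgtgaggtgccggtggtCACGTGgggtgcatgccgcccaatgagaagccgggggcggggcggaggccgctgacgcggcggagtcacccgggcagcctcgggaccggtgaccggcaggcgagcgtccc

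Autophagy was the process that the title of the series names, and the median log2 fold change of each of its lists was small in LH. Of 38 genes of autophagosome formation, 0 were higher and 2 lower at an unadjusted p of 0.05, Vmp1 and Atg4c, with a median of -0.06, against 4.09% and 5.3% of all genes. Vmp1, a membrane protein needed for autophagosome formation, was at 20.2, 26.8 and 16.6 FPKM in naive and at 12.6, 16.6 and 17.4 in CRS, or -0.53 ± 0.18, which was -0.18 without naive 1 and naive 2. Map1lc3b, which is lipidated on the growing membrane, was at 18.8, 19.5 and 15.2 against 16.2, 14.9 and 14 FPKM, or -0.33 ± 0.14 with overlapping groups, and -0.09 without naive 1 and naive 2. Sqstm1, a cargo receptor, was at 135, 108 and 158 against 174, 152 and 158 FPKM. Becn1, of the lipid kinase complex, and Mtor, the kinase that holds autophagy back, also had overlapping groups, with log2 differences of -0.10 ± 0.13 and 0.09 ± 0.21. Of 32 receptors and fusion genes, 4 were lower at an unadjusted p of 0.05, against 5.3% of all genes, with a median of -0.07. Bnip3 and Bnip3l, receptors for mitochondria, were among the 4. Without naive 3 edgeR called 2 of the 32 lower, against 1.87% of all genes. The median of the 32 was -0.03 without naive 1 and naive 2. Bnip3 was at 43.5, 51.5 and 30.5 against 28.7, 29.4 and 31.7 FPKM, and its -0.56 ± 0.18 was -0.11 without naive 1 and naive 2. Lysosomal genes had 5 of 52 lower at an unadjusted p of 0.05, against 5.3% of all genes, and a median of -0.09. Genes of mTOR and AMPK signalling had 0 of 50 in either direction, against 9.38% of all genes, and a median of 0.00.

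Genes of oxidative phosphorylation had slightly negative median log2 fold changes, CRS over naive. Of 79 nuclear-encoded genes tested, 74 had a negative log2 fold change, while 51.2% of all genes had a positive one. At an unadjusted p of 0.05, 8 were lower, against 5.3% of all genes, and the median of the list was -0.24. It was -0.09 without naive 1 and naive 2. The summed level of the nuclear-encoded list was 2640, 3053 and 2399 FPKM in naive and 2205, 2257 and 2633 in CRS. CRS 3 thus lay within the naive range, and only CRS 1 and CRS 2 lay below it. Cox5a, a subunit of cytochrome oxidase, was at 27.5, 29.2 and 25.7 FPKM in naive and at 20.5, 16.3 and 21.3 in CRS, or -0.58 ± 0.14, and -0.48 without naive 1 and naive 2. All 13 mitochondrially encoded messengers had a negative log2 fold change, 3 at an unadjusted p of 0.05, against 5.3% of all genes. The groups were apart with CRS lower in 11, against 6.96%. Their median of -0.28 was -0.26 without naive 3 and -0.17 without naive 1 and naive 2. mt-Nd2, a subunit of complex I, was at 5469, 6340 and 5496 against 4408, 4609 and 4551 FPKM, or -0.43 ± 0.13. These 13 genes share 1 genome and its transcription, so their counts are not 13 independent values.

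Potassium and pacemaker channel genes had 0 higher and 10 lower of 42 at an unadjusted p of 0.05, against 4.09% and 5.3% of all genes, with a median of -0.08. Without naive 3 edgeR called 1 higher and 3 lower, against 1.71% and 1.87% of all genes. The median of the 42 was -0.02 without naive 3 and -0.08 without naive 1 and naive 2. Kcnj3, an inward rectifier gated by G proteins, was at 15.6, 25.7 and 13.6 FPKM in naive and at 10.2, 12 and 10.1 in CRS, or -0.83 ± 0.22. Its difference was -0.41 without naive 1 and naive 2, and DESeq2 called it. Kcnc2, a fast delayed rectifier, was at 24.8, 28.9 and 10.9 against 12.2, 11.8 and 9.88 FPKM, with -0.03 without those 2 libraries. Synaptic vesicle genes had 5 of 27 lower at an unadjusted p of 0.05, against 5.3% of all genes, and a median of -0.11.

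Whether the LH differed from other regions in its response was tested as the LH difference less the mean CRS difference of ventral hippocampus, VTA, nucleus accumbens and medial prefrontal cortex, in 1 fit of 30 libraries. Of 24244 genes, 0 passed in edgeR (0% called) and 1780 (7.34%) had an unadjusted p of 0.05. DESeq2 and limma were not run for this contrast. Without naive 3, 110 genes passed. Of the 14 ependymal genes, 7 were higher in LH at an unadjusted p of 0.05 against 3.19% of all genes, with a median of 2.46. All 21 myelin genes were lower, against 4.15%, with a median of -1.42. The 5 genes of smallest p on the higher side were Cklf, Spag6l, Dlec1, Odf3b and Cfap43. Spag6l, of the ciliary central apparatus, was at 0.751, 0.537 and 0.929 FPKM in naive LH and at 1.73, 1.83 and 2.25 in CRS LH, and the LH difference exceeded the others by 1.31 ± 0.28 (edgeR adjusted p = 0.255). On the lower side were, among others, Gabrd, Ramp3, Kitl and Abhd17b. Gabrd, the extrasynaptic GABA receptor subunit strong in thalamus, was at 5.10, 8.30 and 0.114 FPKM in naive LH and at 0.468, 0.356 and 0.0979 in CRS LH. Naive 1 and naive 2 were the high libraries.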

How the data were processed

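The comparison used the raw count and FPKM columns of the table that the authors deposited for 5 regions, 40905 genes by 30 libraries. A further 18 count columns of no sample here were not used. Per the submitters' processing notes, the tools were cutadapt 1.9, HISAT2 2.0.4, StringTie 1.3.4d and edgeR, and the build GRCm39, while the gene starts in the table equal those of GRCm38. Whether counting used the strand is not given in the sources used here. The deposited FPKM values show levels only. The counts were tested with edgeR 4.0.16 (R 4.3.3): genes kept by filterByExpr, TMM scaling, quasi-likelihood test between CRS and naive on the 6 LH libraries, and Benjamini-Hochberg adjustment over all genes at 0.05. The steps were tested on simulated data. DESeq2 1.42.0, limma 3.58.1 on log2(FPKM + 0.1) and log2(FPKM + 1), other scalings, filters, a replicate block and the removal of libraries were the alternatives. The contrast with 4 other regions used 1 fit of 30 libraries.

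Named genes were the 8 of smallest p in each direction with a mean FPKM of at least 1 in either group and a gene symbol other than a predicted one, 5 in each direction for the regional contrast, and a fixed set of LH, stress and autophagy genes. Lists name the members of smallest p and those needed to show a role. The members and lists were chosen with earlier results of these data known. Mitochondrial genes took 7.58 to 10.6% of counts and genes of ribosomal RNA 0.784 to 2.96% in the LH libraries. Some named genes and list members are not reported here by name.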

Additional observations from a re-analysis of the deposited data

How the results depend on the processing

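The count of 0 genes between CRS and naive LH also came from edgeR with RLE or upper-quartile scaling, robust dispersions, no low-count filter, no mitochondrial and ribosomal RNA genes or the fit of 30 libraries, and from limma. DESeq2 called 343, and leaving out 1 library gave 0 to 760 (760 without naive 3, 1 without naive 2, 1 without CRS 3 and 0 without each of the others). Of the 343 and 760, 235 were shared, 68.5% and 30.9% of each, all with the same sign. Without naive 1 and naive 2, an alternative chosen after seeing the data, 2 passed. Same-numbered libraries did not deviate together (correlations of 0.06, 0.0035 and 0.04), so the numbers were not taken as pairs, and with a replicate block 1 gene passed. The genes behind these small counts, named after their values were seen, were Hdc with the block, Phc3 without CRS 3, Gm42878 without naive 2, and Gm10123 and Gm42878 without naive 1 and naive 2. For the regional contrast, leaving out 1 library gave 0 to 110 genes (110 without naive 3), and 1 passed without naive 1 and naive 2. Among 729 values of 44 named genes, 711 kept their sign, and among 1006 list medians 878 did. No value could be had for the pancreas list at a mean FPKM of at least 1, or for the mitochondrial messengers without mitochondrial genes. Of 56 lists, 25 kept the sign of their median throughout. Without naive 1 and naive 2, 16 medians changed sign, such as ventromedial and dorsomedial genes (0.82 to -0.62), orexin neurons (0.30 to -0.32), MCH neurons (0.36 to -0.34) and choroid plexus (0.17 to -0.39), and without naive 3 10 did. Values rest on 3 libraries a group, and the part of read depth in the lack of calls was not tested.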

Other observations

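Some genes of the arcuate nucleus, which lies below the LH near the midline, were also higher in some CRS libraries. Of 6 tested, 3 were higher at an unadjusted p of 0.05 and 0 lower, against 4.09% and 5.3% of all genes. By sign alone 4 were higher and 2 lower. The summed level of the 7 listed genes was 48.7, 27.05 and 16.4 FPKM in naive and 21.8, 29.8 and 32.5 in CRS, highest in naive 1. By adjusted p without naive 3, edgeR called 0 higher and 1 lower, against 1.71% and 1.87% of all genes. The median of 0.825 was 1.04 without naive 3 and 0.73 without naive 1 and naive 2. Pomc, the precursor of melanocortins, was at 0.214, 0.311 and 0.856 FPKM in naive and at 3.84, 7.07 and 0.641 in CRS, so that CRS 1 and CRS 2 were high and CRS 3 was not. Agrp, the melanocortin antagonist, was at 0.198, 0.358 and 0.190 against 0.583, 1.06 and 0.789 FPKM. Npy, made by the same neurons, was at 8.37, 21.5 and 1.98 against 3.81, 4.84 and 2.83 FPKM and had a negative difference of -1.53 ± 0.70 in log2, which was 0.87 without naive 1 and naive 2.

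Slc18a2, the vesicular monoamine transporter, was at 3.83, 4.31 and 5.01 FPKM in naive and at 7.97, 6.58 and 11 in CRS. Its difference was 0.87 ± 0.20 in log2, and 0.69 without naive 1 and naive 2. Hdc, of the same list of mammillary and tuberomammillary genes, was at 0.0644, 0.104 and 0.770 against 0.872, 1.18 and 8.59 FPKM. Phc3, a Polycomb protein, was at 0.703, 0.788 and 0.856 FPKM in naive, at 5.70 and 6.80 in CRS 1 and CRS 2 and at 0.814 in CRS 3. Gm42878, a predicted gene, was at 0, 3.63 and 0.00639 FPKM in naive and at 3.39, 3.92 and 3.79 in CRS, so that naive 2 sat with the CRS libraries.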
